A study of Mus musculus with 14 samples.

Results

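The genes described here are 9 of the 22842 listed in both count tables: Car1 and Car2 (carbonic anhydrases), Ermap, Rhd, Tfrc, Aqp1 and Cldn13 (membrane proteins), and Sphk1 and Blvrb (enzymes). They were chosen by name as membrane and carbonic anhydrase genes of red cell precursors, with earlier results of these data known. All 9 were found in both tables, where symbols are printed in capitals. The cells were lineage-negative, Tom-positive mouse cells, sorted singly into plates of 96 wells and sequenced from the 3′ end of each transcript with a Smart-seq2 variant. Lineage tracing switches the Tom reporter on in blood stem cells and passes it to their progeny. Mouse m4528 (4 plates), mouse m605 (2 plates) and mouse m606 (2 plates) were taken at day 17, mouse m4533 (3 plates) at day 10 and mouse m4539 (2 plates) at day 3. One plate from day 17, labelled with both m605 and m606, cannot be tied to 1 animal and is described beside the tests without entering them. What the days count from is not stated in the labels, nor are strain, sex, age, genotype or the driver of the reporter, and all groups are reporter-positive cells. Days 3 and 10 rest on 1 mouse each.

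Red cell precursors arise from stem cells through progenitors shared with megakaryocytes, and remodel their surface and their gas, iron and haem handling as they mature. Carbonic anhydrases interconvert carbon dioxide and bicarbonate, and the Car1 and Car2 products are the abundant cytosolic forms of red cells. Erythroblasts take up iron through the transferrin receptor that Tfrc encodes, while Rhd and Ermap encode the Rh blood group protein and an erythroid membrane protein of the immunoglobulin superfamily that carries the Scianna blood group in humans. Aqp1 encodes a water channel, and Cldn13 a claudin, a family best known from tight junctions. Sphk1 encodes a kinase that makes sphingosine 1-phosphate, which red cells carry in blood. Blvrb encodes biliverdin reductase B, also known as flavin reductase, an abundant red cell enzyme.

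In the RefSeq annotation of build GRCm38.p6, Car1 lies on chromosome 3 at 14766214-14808365 and Car2 on the same chromosome at 14886269-14900770. Ermap (119175457-119190013) and Rhd (134864536-134896172) are both on chromosome 4. Cldn13 lies on chromosome 5 at 134914250-134915530, Aqp1 on chromosome 6 at 55336299-55348555, Blvrb on chromosome 7 at 27447978-27465981, Sphk1 on chromosome 11 at 116530836-116536675 and Tfrc on chromosome 16 at 32608896-32632794.

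Promoters of Ermap and Rhd are shown because, of the first RefSeq windows found for the members, theirs hold a GATA motif. Erythroid genes are known targets of GATA1, which binds GATA motifs, and KLF1, which binds CACC boxes. The 250 bases before each RefSeq start (build GRCm38.p6) are printed 5′ to 3′ on the strand of the gene. Capitals mark each AGATAA or TGATAA found on either strand. The windows are chr4:119189996-119190245 (minus strand) for Ermap and chr4:134864286-134864535 (plus strand) for Rhd.
Ermap: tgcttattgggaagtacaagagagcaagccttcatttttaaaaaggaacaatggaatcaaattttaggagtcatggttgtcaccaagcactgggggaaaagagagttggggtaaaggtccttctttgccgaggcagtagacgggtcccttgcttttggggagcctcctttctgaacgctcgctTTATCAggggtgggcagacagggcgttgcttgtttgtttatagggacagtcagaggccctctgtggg
Rhd: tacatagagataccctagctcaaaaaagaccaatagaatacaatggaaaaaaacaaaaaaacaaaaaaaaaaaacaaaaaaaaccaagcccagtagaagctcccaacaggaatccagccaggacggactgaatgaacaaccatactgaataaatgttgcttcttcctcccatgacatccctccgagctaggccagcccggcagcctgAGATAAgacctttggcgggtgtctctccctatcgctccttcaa
The motif of Ermap lies on the opposite strand, 67 to 62 bases before the start, and the motif of Rhd lies on the strand of the gene, 43 to 38 bases before it. Of 32851 RefSeq promoter windows of that length, 16.6% hold such a GATA motif on either strand. Neither window holds CCNCNCCC, the CACC box letters searched on both strands, which 45.9% of all windows do. RefSeq windows were found for 6 of the 9 genes. The first windows of Aqp1, Blvrb, Sphk1 and Tfrc hold 3, 4, 2 and 3 such CACC letters, some of them overlapping, and no GATA motif, and 2 later starts of Sphk1 hold 1 GATA motif each. These matches are letters in a window and describe no binding.

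A cell was kept if it had at least 500 detected genes and 10000 counts, which left 1010 of 9357 barcodes. These were 288, 143 and 189 cells of m4528, m605 and m606 (64257177, 25482791 and 30315939 counts), 107 of m4533 (40041487 counts), 190 of m4539 (28934071 counts) and 93 of the mixed plate (15121279 counts). Cells were assigned to lineage gates by marker lists that contain none of the 9 genes, and a marker or member was called held where a cell had over 10 counts of it and more than 50% of the pooled level of its plate. The plate level was added to this rule after the data had been seen, for markers as for members. A gate needed at least 3 held markers and a larger share of its own list than of any other. In the 3 day 17 mice the gates held 86 erythroid, 172 stem cell, 73 megakaryocyte, 21 basophil or mast cell, 43 neutrophil and 98 monocyte cells, and 127 cells had no gate. With markers held at over 10 counts alone, the gates had 86, 170, 72, 25, 59 and 107 cells, of which 84, 165, 69, 18, 38 and 96 were in the same gate as before. None of the 4 mast cell markers (of 13 in the combined list) is in both tables, so basophils and mast cells could not be separated. The 10 erythroid markers summed to 2736, 3286 and 3980 CPM (counts of a gene relative to all counts of the cells summed, scaled by 1000000) in the erythroid gate of m4528, m605 and m606, against 229.6, 222.6 and 133.4 in the stem cell gate, and none was at 0 in the erythroid gate. In the same erythroid sums the stem cell list had 281.5 to 477.9 CPM, the monocyte list 100.4 to 554.2, the neutrophil list 153.5 to 322.7, the basophil or mast cell list 32.8 to 320.5 and the megakaryocyte list 62.1 to 124.5, and the part of such cells in any result was not tested. All 96 well barcodes occur on more than 1 plate, as the plate design gives. Wells with 3 or more held markers of both the erythroid list and another list numbered 4 in the day 17 mice. Wells with 3 or more held markers of any 2 gate lists numbered 53, 25 and 39 of the 288, 143 and 189 cells of m4528, m605 and m606.

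Counts of the members appeared at a low level in cells of every gate, which bears on every share of cells below. For example, CAR1 in the monocyte gate stood at 3.94% to 7.41% of the pooled CPM of the same mouse, and RHD at 1.63% to 3.73%. Whether such counts come from the cells themselves was not tested. In counts of held cells, a cell at that level is not counted as holding the gene. The counts by erythroid markers and by pairs of genes below use thinned counts without the plate level. Each member also had a higher pooled CPM in the barcodes left out than in the kept cells. Examples are 812.1 against 577.9 CPM for BLVRB, 219.4 against 146.9 for ERMAP and 82.74 against 80.67 for TFRC. With a threshold of over 10 counts alone, CAR1 was in 48 of 98 monocyte-gated cells and 22 of 43 neutrophil-gated cells. With the plate level taken into account it was held by 1 of 98 and 1 of 43.

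Of the carbonic anhydrases, CAR1 set erythroid cells apart from cells of the stem cell gate, while CAR2 was present in both. Erythroid-gated cells of m4528, m605 and m606 had 3360, 4024 and 4150 CPM of CAR1, against 25.63, 101.0 and 108.4 CPM in stem-cell-gated cells of the same mice. The groups do not overlap, and the erythroid value was 131.1, 39.8 and 38.3 times the stem cell value in m4528, m605 and m606. The fitted difference was 5.81 ± 0.82 (log2, SE; 3 mice, edgeR adjusted p = 0.00149). Erythroid-gated cells of the mixed plate had 4056 CPM, against 66.03 CPM in its stem-cell-gated cells. By single cells, CAR1 was held by 78 of 86 erythroid-gated cells (90.7%, 95% exact binomial interval 82.5 to 95.9), against 1 of 172 stem-cell-gated cells (0.581%, interval 0.0147 to 3.20). Intervals here cover counting error only.

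CAR2 gave a different picture. Erythroid-gated cells had 4870, 5354 and 6271 CPM of CAR2 in m4528, m605 and m606, against 4947, 3719 and 3913 CPM in stem-cell-gated cells. The groups overlap, since in m4528 the stem cell value was the higher one. The fitted difference was 0.49 ± 0.43 (log2, SE; edgeR adjusted p = 0.536) and did not pass the test, which does not show the 2 gates to be alike. CAR2 was held by 85 of 86 erythroid-gated cells, against 159 of 172 stem-cell-gated cells.

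Of the other members, ERMAP, RHD, SPHK1 and CLDN13 were low in the stem cell gate and high in the erythroid gate. ERMAP averaged 700.7 ± 89.6 CPM in the erythroid gate and 7.94 ± 6.41 CPM in the stem cell gate (SD, n = 3 mice each). RHD, the Rh blood group gene, averaged 764.1 ± 134.4 CPM and 6.73 ± 4.47 CPM in those gates, and SPHK1 336.2 ± 55.8 CPM and 5.78 ± 4.65 CPM. CLDN13 averaged 547.4 ± 166.8 CPM in the erythroid gate and 17.7 ± 5.21 CPM in the stem cell gate. For each of these 4 genes the lowest erythroid mouse lay above the highest stem cell mouse. How many of all genes tested are separated in this way was not counted, so the separation is not shown to be particular to them. In stem-cell-gated cells ERMAP was at 1.10% to 5.21% of the mouse's pooled level, RHD at 1.90% to 3.24% and SPHK1 at 1.96% to 6.53%. CLDN13 was at 22.1%, 8.114% and 8.401% of the pool there in m4528, m605 and m606, against 4.25% to 8.51% in the megakaryocyte, basophil or mast cell, neutrophil and monocyte gates, and in m4528 129 of its 167 stem cell counts lay in 1 cell. ERMAP was not low everywhere else, with 89.4 CPM in the basophil or mast cell gate of m4528 and up to 184.7 CPM in ungated cells. Held cells in the stem cell gate numbered 1 of 172 for ERMAP, 0 of 172 for RHD (an upper limit of 2.12%), 0 of 172 for SPHK1 and 2 of 172 for CLDN13. In the erythroid gate they numbered 76, 68, 62 and 66 of 86 for the same genes.

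BLVRB and TFRC were present at lower levels outside the erythroid gate. BLVRB had 1150, 2557 and 2911 CPM in erythroid-gated cells of m4528, m605 and m606, against 192.5, 195.8 and 251.6 CPM in stem-cell-gated cells. It was held by 85 of 86 erythroid-gated cells, against 44 of 172 stem-cell-gated cells and 20 of 73 megakaryocyte-gated cells. TFRC, the iron uptake receptor, had 140.2, 272.1 and 358.5 CPM in the erythroid gate, against 26.6, 9.47 and 66.2 CPM in the stem cell gate. In m4528 most of the stem cell value came from 1 cell, which had 279 of the 379 counts. AQP1, the water channel gene, had 27.3, 41.8 and 42.7 CPM in the erythroid gate, against 1.40, 17.4 and 2.03 CPM in the stem cell gate. It was held by 34 of 86 erythroid-gated cells and had 0 counts in 22 of them.

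Of the 9 members, 7 rose in the erythroid gate against the stem cell gate in edgeR's quasi-likelihood test at an adjusted p under 0.05, where 9.59% of 14282 tested genes passed in either direction and 4.03% were higher. The median over the 9 members was 5.02 (log2), against 0.01 over all genes tested. The 9 genes were chosen with earlier results of these data known. Their counts and medians beside all genes, here and against the other gates, are therefore description only. RHD had the largest fitted difference, 7.52 ± 0.67 (log2, SE; edgeR adjusted p = 0.000113), followed by ERMAP at 6.82 ± 1.13 (adjusted p = 0.00361), SPHK1 at 6.67 ± 0.77 (adjusted p = 0.000554), CAR1, and CLDN13 at 5.02 ± 0.41 (adjusted p = 8.76e-05). The ratio differed between mice along with the level in the stem cell gate: for RHD it was 388.5 in m4528, where that level was 1.62 CPM, and 88.5 and 90.7 in m605 and m606, where it was 8.68 and 9.88 CPM. BLVRB was higher by 3.38 ± 0.32 (edgeR adjusted p = 0.000173) and TFRC by 3.29 ± 0.69 (edgeR adjusted p = 0.0123). AQP1, at 3.03 ± 1.12 (edgeR adjusted p = 0.117), and CAR2 did not pass. Without mouse m606 no member passed (1 gene of all tested did), without m605 5 members passed, ERMAP and TFRC not, and without m4528 6 passed, TFRC not.

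**Figure D1:**
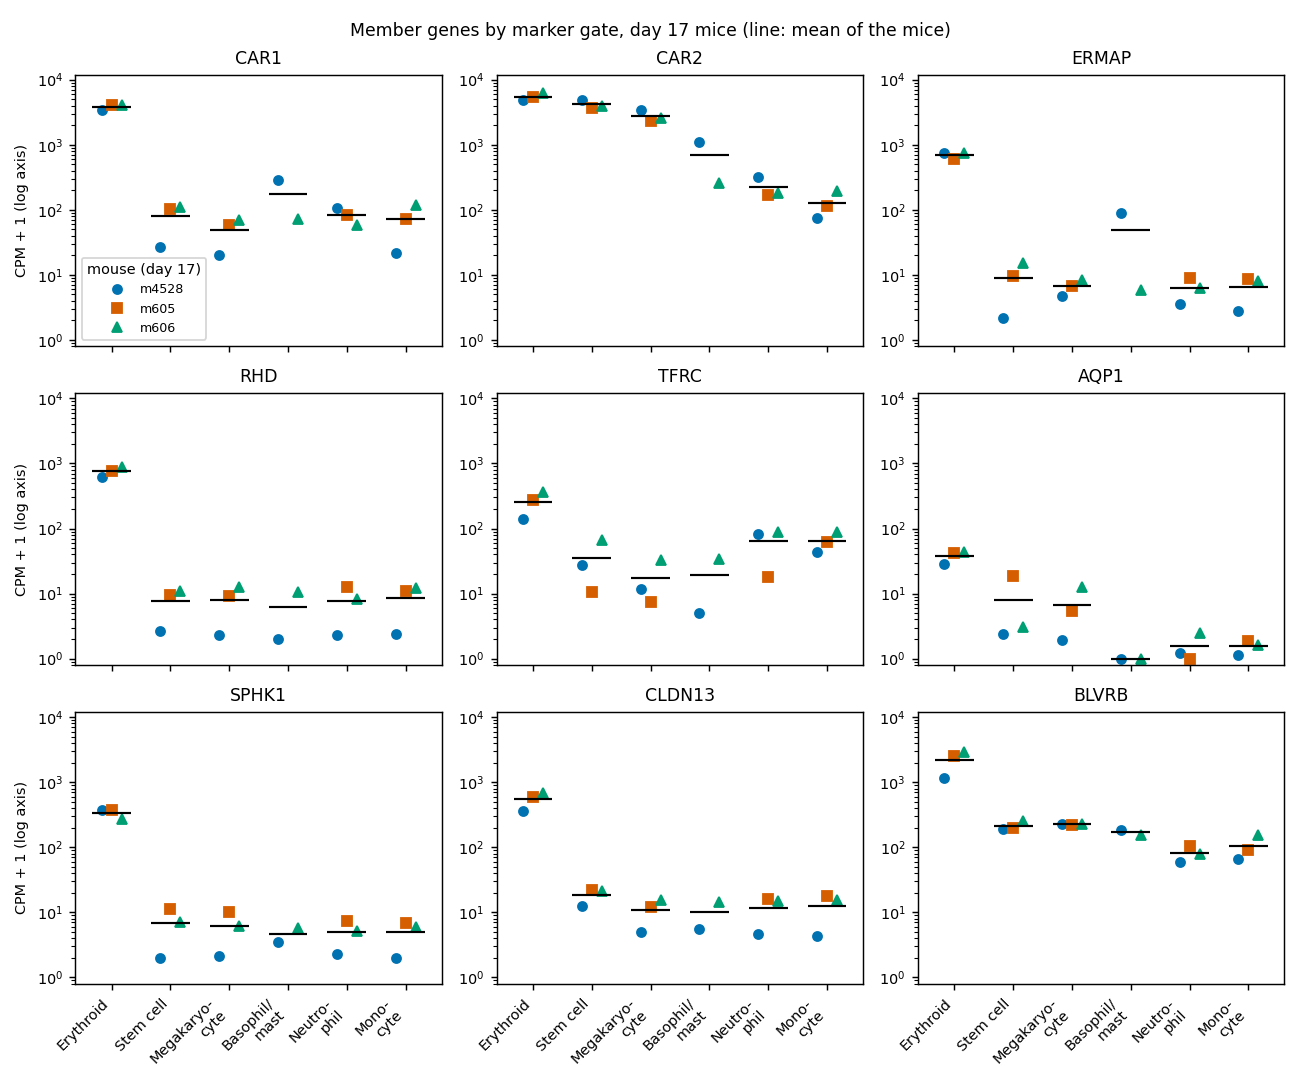
Levels of the 9 genes (CPM + 1, log axis) in summed cells of each lineage gate, with 1 symbol per day 17 mouse and a line at the mean of the mice; sums of under 5 cells are left out, so the basophil or mast cell gate has 2 mice. CAR1, ERMAP, RHD, SPHK1 and CLDN13 are highest in the erythroid gate in each mouse, with CAR1 and ERMAP of m4528 raised in the basophil or mast cell gate, while CAR2 falls stepwise over the gates with means of 5498, 4193, 2755, 688.1, 220.4 and 126.1 CPM.

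Against the megakaryocyte gate, the closest lineage by origin, 7 of 9 members rose in the erythroid gate, where 3.96% of all genes tested passed in either direction and 1.53% were higher. The member median was 5.94 (log2), against 0.08 over all genes tested. RHD was higher by 7.42 ± 0.66 (edgeR adjusted p = 0.000197), ERMAP by 7.06 ± 1.13 (adjusted p = 0.00456), SPHK1 by 6.67 ± 0.77 (adjusted p = 0.000526), CAR1 by 6.41 ± 0.84 (adjusted p = 0.00120) and CLDN13 by 5.94 ± 0.43 (adjusted p = 3.01e-05). TFRC was higher by 4.27 ± 0.72 (edgeR adjusted p = 0.00619) and BLVRB by 3.20 ± 0.32 (edgeR adjusted p = 0.000333). AQP1 at 3.27 ± 1.11 (edgeR adjusted p = 0.138) and CAR2 at 1.03 ± 0.43 (edgeR adjusted p = 0.230) did not pass. CAR2 had 4870, 5354 and 6271 CPM in erythroid-gated cells of m4528, m605 and m606, against 3405, 2309 and 2551 CPM in megakaryocyte-gated cells. These groups do not overlap, but how many of all genes tested are separated in this way was not counted. The CAR2 difference passed without m4528 (1.24, edgeR adjusted p = 0.0197) and with the mixed plate added (1.19, edgeR adjusted p = 0.0403). It did not pass in the main test or without m606. Without m605 4 members passed and without m606 1 did, CAR1 in that case.

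All 9 members rose in the erythroid gate against the neutrophil and monocyte gates as a pair, where 8.16% of all genes tested passed and 3.54% were higher. The member median was 5.73 (log2), against 0.10 over all genes tested. CAR2 showed its widest gap here: 5498 ± 712 CPM in the erythroid gate, against 220.4 ± 80.6 CPM in neutrophil-gated and 126.1 ± 59.9 CPM in monocyte-gated cells (SD, n = 3 mice each). That is a fitted difference of 4.95 ± 0.38 (log2, SE; edgeR adjusted p = 1.17e-05). TFRC had the smallest, 1.95 ± 0.53 (edgeR adjusted p = 0.0395), and this call was lost without any 1 of the 3 mice (edgeR adjusted p = 0.0630 to 0.285). TFRC averaged 256.9 ± 109.9 CPM in the erythroid gate, against 62.5 ± 39.3 CPM in the neutrophil gate and 63.0 ± 22.3 CPM in the monocyte gate. It was held by 66 of 86 erythroid-gated cells, against 12 of 43 and 24 of 98 cells of those gates, so transferrin receptor transcripts were the member most often held by myeloid cells.

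Basophil or mast cell gated cells were compared with the erythroid gate in 2 mice, since m605 had only 4 such cells. Of the 9 members, 8 rose in the erythroid gate, where 5.57% of all genes tested passed and 2.68% were higher. The member median was 4.46 (log2), against 0.42 over all genes tested. CAR1 was higher by 3.99 ± 0.91 (edgeR adjusted p = 0.0249), CAR2 by 3.07 ± 0.56 (edgeR adjusted p = 0.00816) and BLVRB by 3.42 ± 0.39 (edgeR adjusted p = 0.000471). RHD, SPHK1, CLDN13 and TFRC differed by 7.56, 6.31, 5.76 and 4.46 (log2; edgeR adjusted p = 0.000424, 0.00244, 0.000104 and 0.0136). ERMAP, at 3.33 ± 1.13 (edgeR adjusted p = 0.112), did not pass, but did without m4528 (7.12, edgeR adjusted p = 0.00787), where the gate is left with 1 sum of 7 cells. AQP1 had no count in the basophil or mast cell gate, and against a floor of 3 counts over that gate it was at least 38.3-fold higher in the erythroid gate (37.9 CPM pooled, against 0.99 CPM at the floor; edgeR adjusted p = 0.0255). Without m606 no member passed, without m605 6 did and without m4528 7 did. Without m606 or m4528 the basophil or mast cell gate is 1 sum, here and in its other comparisons, and that sum is assumed to vary like those of the other gates. With gate markers at over 10 counts alone 7 passed, CAR2 (2.54, edgeR adjusted p = 0.0518) and AQP1 (edgeR adjusted p = 0.0652) not and ERMAP (edgeR adjusted p = 0.0457) in addition.

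CAR1 was present in the basophil or mast cell gate of 1 mouse through 1 cell. The gate had 282.3 CPM of CAR1 in m4528 and 71.1 CPM in m606. In m4528, 533 of its 562 counts lay in a single cell, and the gate without that cell had 15.9 CPM. The same cell had 173 of the 178 ERMAP counts, 351 counts of CAR2, 131 of BLVRB and none of RHD, SPHK1, CLDN13 or TFRC. It held 3 basophil or mast cell markers, which is the minimum, together with the erythroid markers KLF1 and TSPO2. The m606 level was 4.43% of the mouse's pool, inside the 3.94% to 7.41% of the monocyte gate. CAR1 was over 10 counts in 6 of 21 cells of the gate (28.6%, 95% exact interval 11.3 to 52.2), and held with the plate level taken into account by 1 of 21 (4.76%, interval 0.121 to 23.8).

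CAR2 reached the basophil or mast cell gate at a low level that differed between the mice. The gate had 1116 CPM in m4528 and 260.2 CPM in m606, against 4947 and 3913 CPM in the stem cell gate. Other marker lists were also present in the gate. In m4528 and m606 the eosinophil list summed to 2918 and 17.28 CPM and the erythroid list to 829.5 and 475.3 CPM. The stem cell list summed to 802.3 and 827.7 CPM and the neutrophil list to 2416 and 3259 CPM. The part of such cells in the difference between the mice was not tested. CAR2 fell against the stem cell gate (log2 -2.58 ± 0.54, edgeR adjusted p = 0.0280) and was the only one of the 9 to pass there, where 2.54% of all genes tested did and 1.57% were lower. The call was lost without m605 (-2.56, edgeR adjusted p = 0.109) and without m606 (-1.82, edgeR adjusted p = 0.213). The other 8 members did not pass, and CAR1 (1.83 ± 0.82, edgeR adjusted p = 0.235) turned to -0.46 without m4528. These calls turn on how the gate is drawn: with gate markers at over 10 counts alone, CAR1 rose (3.14, edgeR adjusted p = 0.0268) and CAR2 did not pass (-2.13, edgeR adjusted p = 0.128). Against the neutrophil and monocyte gates, CAR2 was higher (1.88 ± 0.42, edgeR adjusted p = 0.0396) and again the only member to pass, where 2.24% of all genes tested did and 0.98% were higher. That call was lost without any 1 mouse (edgeR adjusted p = 0.0896 to 0.344) and with gate markers at over 10 counts alone (1.74, edgeR adjusted p = 0.172), where CAR1 passed (2.96, edgeR adjusted p = 0.0159). In m606 the value of 260.2 CPM stood beside 182.9 CPM in the neutrophil gate and 191.2 CPM in the monocyte gate.

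By single cells, CAR2 was held by 3 of 21 basophil or mast cell gated cells (14.3%, 95% exact interval 3.05 to 36.3), all of m4528. They had 4855, 2128 and 1380 CPM of CAR2, levels met in the stem cell gate, where the median cell had 4423 CPM. Each held 3 markers of the basophil or mast cell gate, the minimum, and the erythroid transcription factor gene KLF1. The cell with 2128 CPM alone also held CAR1. Cells of the gate that did not hold CAR2 reached 893.1 CPM in m4528, 792.7 CPM in m605 and 1217 CPM in m606. The level needed differs by plate. Pooled CAR2 was 2251 to 2946 CPM on the plates of m4528 and 3631 and 2827 CPM on those of m606. On the plates of m605 it was 1779 and 4104 CPM. The same CPM can thus be held on 1 plate and not on another, which bears on the numbers by mouse. The median cell of the gate had 167.2 CPM of CAR2, against 146.7 in the neutrophil gate and 90.7 in the monocyte gate.

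The megakaryocyte gate had CAR2 and no CAR1 above the plate level. It had 3405, 2309 and 2551 CPM of CAR2 in m4528, m605 and m606, against 4947, 3719 and 3913 CPM in the stem cell gate, and was the lower of the 2 in each mouse. The same held at day 3 (3735 CPM against 4884) and day 10 (2742 CPM against 5243) and on the mixed plate (1941 CPM against 3713). The day 17 difference of -0.54 ± 0.43 (log2, SE) did not pass the test (edgeR adjusted p = 0.662). CAR2 was held by 53 of 73 megakaryocyte-gated cells (72.6%, 95% exact interval 60.9 to 82.4). In this gate the stem cell list summed to 693.0, 891.8 and 906.1 CPM in m4528, m605 and m606. The megakaryocyte list summed to 5135, 7452 and 8996 CPM there. The part of stem cell transcripts in the CAR2 level of the gate was not tested.

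CAR1 was held by 0 of 73 megakaryocyte-gated cells of the day 17 mice (upper limit 4.93%), and by 1 of 15 on the mixed plate. Its 19.0, 57.3 and 69.2 CPM there were 3.12% to 4.32% of the mice's pools. No member passed between the megakaryocyte and stem cell gates in edgeR, where 0.350% of all genes tested did. At an unadjusted p under 0.05, 1 member and 1850 of all genes passed, and DESeq2 called 0 members and 674 genes. BLVRB stood at 229.8, 221.5 and 226.5 CPM in the megakaryocyte gate, against 192.5, 195.8 and 251.6 CPM in the stem cell gate.

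**Figure D2:**
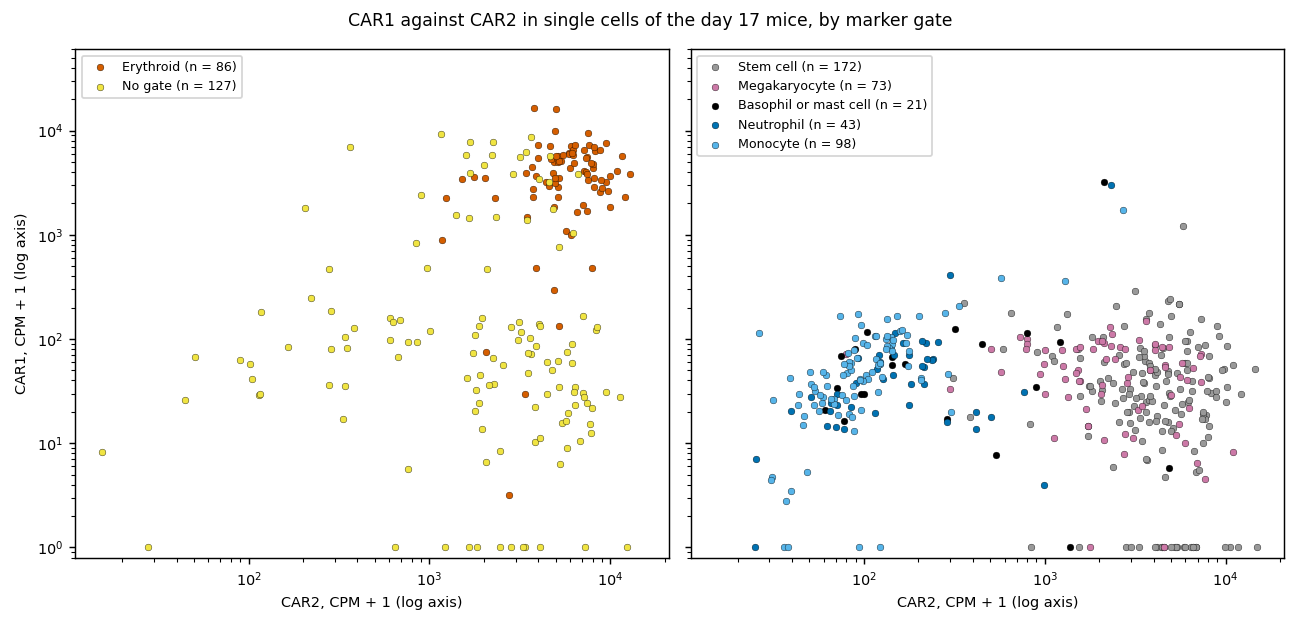
CAR1 against CAR2 (CPM + 1, log axes) with 1 point per cell of the 3 day 17 mice, erythroid-gated cells and cells with no gate on the left and the other gates on the right. Erythroid cells gather where both are high, stem cell and megakaryocyte cells lie at high CAR2 with low CAR1, neutrophil and monocyte cells are low in both, and 1 cell each of the stem cell, basophil or mast cell, neutrophil and monocyte gates stands at 1206 CPM of CAR1 or more.

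Outside the erythroid gate CAR1 was held by 4 gated cells of the day 17 mice. They were 1 stem cell (1206 CPM), 1 basophil or mast cell (3232 CPM), 1 neutrophil (2991 CPM) and 1 monocyte (1736 CPM) gated cell. Each also had at least 2128 CPM of CAR2, and each held 1 or 2 erythroid markers. The neutrophil-gated cell held KLF1 and TSPO2 beside 9 neutrophil markers and had no count of ERMAP, RHD, SPHK1 or CLDN13. Whether these wells held 1 cell was not tested.

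A larger set of CAR1 cells had no gate. Of 127 ungated day 17 cells 27 held CAR1, at a median of 3833 CPM, near the 4082 CPM of erythroid-gated cells that held it. Of the 27, 15 had 2 erythroid markers, 8 had 1 and 4 had none, so they missed the minimum of 3. The markers were mainly TSPO2 (19 cells), which encodes an erythroid protein of the translocator family, and KLF1 (15 cells). EPOR was held by 2, CPOX and HBB-BT, a beta globin gene, by 1 each, and TRIM10, ALAS2, SLC25A21, NXPE2 and HBA-A1 by none. Of the 27, 9 held 2 or more stem cell markers, 4 as many megakaryocyte and 2 as many basophil or mast cell markers. In the 100 ungated cells without CAR1 these numbers were 40, 18 and 9. Beside CAR1, 25 of the 27 held BLVRB (median 1305 CPM), 19 held CAR2 and 8 held ERMAP. None held RHD or CLDN13, and 1 held SPHK1. These cells had a median of 66660 counts, fewer than the 100700 of ungated cells without CAR1 and the 280785 of erythroid-gated cells of all plates, and depth was not matched in these counts. They numbered 5, 10 and 12 in m4528, m605 and m606, and 6 of 14 ungated cells on the mixed plate held CAR1 as well.

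Order of appearance was read along the number of erythroid markers that a cell held, with each cell thinned to 50000 counts so that depth was equal. The axis holds none of the 9 genes, and cells of the basophil or mast cell, neutrophil and monocyte gates and the cells shallower than that (5, 24 and 12 in m4528, m605 and m606, whatever their gate) were left out. The remaining 423 cells comprised 237 with no erythroid marker, 90 with 1, 31 with 2, 23 with 3 and 42 with 4 or more. A cross-section of cells is not a time course, and a gene of low level passes 10 counts later than one of high level at the same moment. For that reason the mean level of each gene relative to its own level at 4 or more markers is given as well, an alternative added after the data had been seen.

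CAR2 was present before the first erythroid marker. It exceeded 10 counts in 95.8% of cells with no erythroid marker and in all cells with 1 or more, and its mean was 3934, 4342, 4214, 4947 and 6958 CPM in cells with 0, 1, 2, 3 and 4 or more markers. The mice differed in this. In m4528, which gave 132 of the 237 cells with no marker and 5 of the 42 with 4 or more, the means were 4601, 5192, 4334, 4677 and 4588 CPM. In m605 they were 2486, 2706, 4913, 5404 and 6974 CPM and in m606 3457, 3270, 3590, 4629 and 7536 CPM, so the higher level at 4 or more markers was that of m605 and m606. BLVRB was next by share of cells, at 29.1% with no marker, 46.7% with 1, 90.3% with 2, 95.7% with 3 and 100% with 4 or more. Its level grew over the whole axis and with 2 markers was 41.3% of its level at 4 or more.

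CAR1 exceeded 10 counts in 2.11%, 15.6%, 77.4%, 95.7% and 97.6% of cells with 0, 1, 2, 3 and 4 or more markers. With 2 markers its mean level was 88.1% of that at 4 or more, and with 3 markers 128.2%. In m605 and m606 its widest step in share was between 1 and 2 markers (30.8% and 100% in m605, 26.1% and 91.7% in m606), while m4528 had 7.41%, 40.0% and 85.7% with 1, 2 and 3 markers. ERMAP stood at 0%, 11.1%, 45.2%, 82.6% and 88.1% of cells, with 53.8% of its final level at 2 markers.

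RHD and CLDN13 were lower than CAR1 and ERMAP at 2 and 3 markers over the 3 mice together. RHD exceeded 10 counts in 5.56%, 25.8%, 56.5% and 92.9% of cells with 1, 2, 3 and 4 or more markers, and CLDN13 in 3.33%, 22.6%, 56.5% and 88.1%. Their mean levels with 2 markers were 15.9% and 11.4% of those at 4 or more, and with 3 markers 44.1% and 26.9%. The place of these genes against ERMAP depended on the measure and the mouse. With 4 or more markers the share of RHD was above that of ERMAP. At over 0 counts, cells with 2 markers had CLDN13 in 61.3%, ERMAP in 54.8% and RHD in 51.6%. In m4528 the mean level at 2 markers was 21.1% of the final one for RHD and 14.95% for ERMAP. TFRC exceeded 10 counts in 19.4%, 47.8% and 59.5% of cells with 2, 3 and 4 or more markers and SPHK1 in 12.9%, 43.5% and 52.4%. By level TFRC had 92.5% and SPHK1 100.4% of the final level at 3 markers, but the mice spread widely. SPHK1 stood at 140.6%, 112.8% and 49.96% there in m4528, m605 and m606, and TFRC at 365.1%, 92.1% and 82.2%. At 2 markers SPHK1 had 17.7%, 56% and 7.61%, against 21.1%, 26.2% and 9.82% for RHD, so no order between them was shared by the mice. AQP1 exceeded 10 counts in at most 2.38% of any class at this depth and cannot be placed by share.

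**Figure D3:**
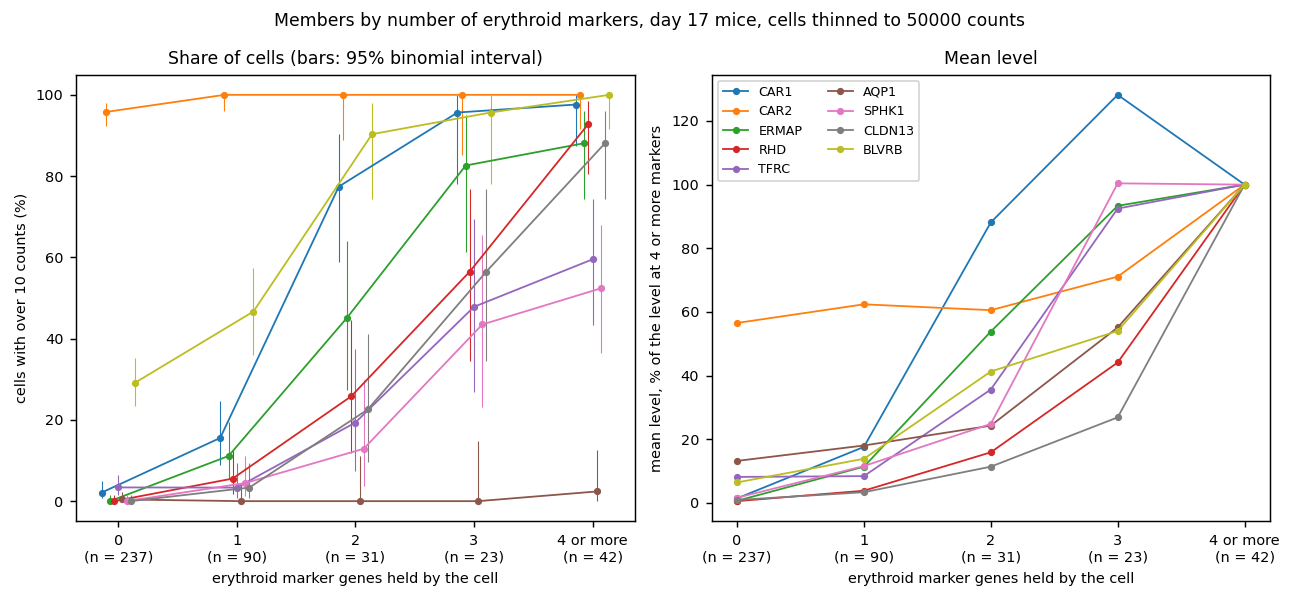
Left, share of cells with over 10 counts of each gene (%, with 95% exact binomial intervals), and right, its mean level as a percent of that in cells with 4 or more erythroid markers, both by the number of erythroid markers held, over 423 cells of the 3 day 17 mice thinned to 50000 counts. CAR2 starts at 95.8%, CAR1 climbs to 77.4% with 2 markers, ERMAP to 45.2% and RHD to 25.8%.

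Pairs of genes were also counted in the same thinned cells, at the same threshold of counts and without the plate level. CAR1 without ERMAP was found in 28 cells and ERMAP without CAR1 in 2, and both in 78. The numbers for m4528, m605 and m606 were 5, 12 and 11 against 2, 0 and 0. CAR1 without RHD was found in 43 cells and RHD without CAR1 in 2, and CAR1 without CLDN13 in 47 against 1. ERMAP without RHD numbered 20 cells, against 5 with RHD alone. Between RHD and CLDN13 there were 9 cells of RHD alone, 4 of CLDN13 alone and 56 with both, and between TFRC and CLDN13 18 of TFRC alone, 25 of CLDN13 alone and 35 with both. CAR2 without CAR1 numbered 307 cells, and CAR1 without CAR2 0. At this threshold CAR2 was also found in 30.95% of thinned neutrophil-gated cells, so the 0 does not set an order between CAR2 and CAR1. With the plate level, 27 ungated cells held CAR1, and 19 of these held CAR2 as well.

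The middle of the axis rests on few cells and differed between mice. Mouse m4528 is in the first count table, and m605 and m606 are in the second. Where m4528 differs from both, here or above, mouse and table cannot be told apart. With 2 markers there were 10, 9 and 12 cells of m4528, m605 and m606. CAR1 exceeded 10 counts in 40.0%, 100% and 91.7% of them, ERMAP in 10%, 66.7% and 58.3%, and RHD in 10%, 55.6% and 16.7%. By this share CAR1 was ahead of ERMAP in each mouse, while ERMAP and RHD were tied in m4528. CAR1 also had the higher mean level in the erythroid gate (3845 CPM, against 700.7 CPM of ERMAP), and the gene of higher level passes 10 counts sooner. BLVRB was at 70.0%, 100% and 100%.

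Within the erythroid gate the members varied widely from cell to cell. CAR1 spanned 2.22 to 16350 CPM over the 86 cells with a median of 3898, and RHD 0 to 2334 CPM with a median of 675.6. CAR2 was the more even carbonic anhydrase, with quartiles of 4654 and 7636 CPM around a median of 5800. Of the 86 cells 77 held 5 or more of the 9 genes, 8 held 2 to 4, 1 held a single gene and 23 held all 9. In the stem cell gate no cell held 5 or more and 118 of 172 held 1. In the basophil or mast cell gate 16 of 21 held none.

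Over those 86 cells some pairs varied together more closely than others. RHD and CLDN13 had the highest correlation of log2(CPM + 1), r = 0.78, followed by CLDN13 and BLVRB at 0.70 and TFRC and CLDN13 at 0.67. CAR1 and CAR2, both on chromosome 3, had r = 0.30. CAR1 and CLDN13 had 0.21 and CAR1 and AQP1 0.12, the lowest of the 36 pairs. These are descriptions across cells that share 3 mice, plates and differences in depth, and a low level by itself lowers r.

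**Figure D4:**
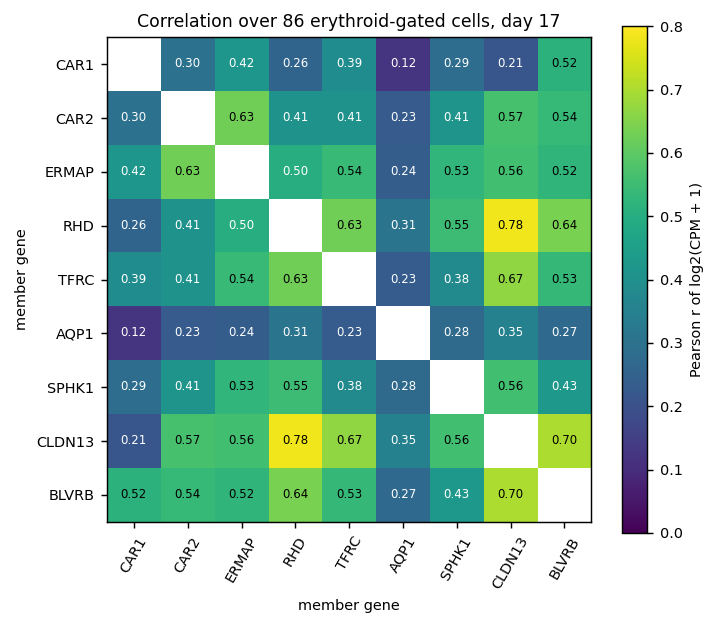
Pearson correlation of log2(CPM + 1) for each pair of the 9 genes over the 86 erythroid-gated cells of the day 17 mice, by colour and printed value. Pairs among RHD, CLDN13, BLVRB and TFRC span 0.53 to 0.78, and other pairs reach into that range, such as CAR2 and ERMAP at 0.63. The AQP1 row is the lowest, at 0.12 to 0.35, and the CAR1 row spans 0.12 to 0.52.

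Genes outside the 9 were compared by their pattern over the 17 sums of mouse and gate at day 17. Among 4122 genes with a mean of at least 50 CPM, SLC38A5, an amino acid transporter gene, had the highest correlation with the mean pattern of the 9 genes (r = 0.96), and CTSE (0.96), FAM132A (0.89) and PRELID2 (0.87) were among the next highest. SLC38A5 had 387.1 ± 50.8 CPM in the erythroid gate and 5.43 ± 4.04 CPM in the stem cell gate (SD, n = 3 mice each), and CTSE, an aspartic protease gene, 894.0 ± 257.2 and 29.0 ± 8.71 CPM. FAM132A had 1703 ± 206.5 and 177.3 ± 54.6 CPM. Among the genes nearest to CAR1 were CTSE (0.96) and SLC38A5 (0.90). Those nearest to CAR2 were GFI1B (0.92), TSPAN13 (0.92) and TAL1 (0.91), of which GFI1B and TAL1 encode transcription factors of the megakaryocyte and erythroid lineages. TAL1 had 126.1 ± 47.1 CPM in the erythroid gate, 284.3 ± 142.8 in the stem cell gate and 231.6 ± 61.0 in the megakaryocyte gate. The r between CAR1 and CAR2 over the same 17 sums was 0.44. These sums share mice and plates, and r is given as a description.

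Other red cell membrane and skeleton genes were higher in the erythroid gate in part. Of 25 tested (30 listed), 10 were higher in the erythroid gate than in the stem cell gate, 0 were lower and 15 did not pass. Of all genes tested 4.03% were higher and 5.56% lower. The median of the 25 was 1.97 (log2). ADD2, which encodes the membrane skeleton protein beta-adducin, had 46.4, 126.5 and 162.1 CPM in the erythroid gate of m4528, m605 and m606, against 0.0702, 2.37 and 3.78 CPM in the stem cell gate (edgeR adjusted p = 0.00145). RHAG, whose product is the partner of the Rh proteins in the membrane, averaged 180.9 ± 30.01 CPM in the erythroid gate (edgeR adjusted p = 0.00670). SPTB, which encodes beta-spectrin, was higher by 5.6 ± 1.06 (log2, SE; edgeR adjusted p = 0.00868). Against the megakaryocyte gate 8 of the 25 were higher and 0 lower, where 1.53% of all genes tested were higher and 2.43% lower. Against the neutrophil and monocyte gates 15 were higher and 0 lower, where 3.54% of all genes tested were higher and 4.62% lower.

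Of the iron and haem handling genes, 6 of 21 tested (24 listed) were higher in the erythroid gate than in the stem cell gate and 1 was lower. Of all genes tested 4.03% were higher and 5.56% lower, so 1 lower gene of 21 is near the share of all genes. The median of the 21 was 1.67 (log2). UROD, an enzyme of haem synthesis, was higher by 1.67 ± 0.28 (log2, SE; edgeR adjusted p = 0.00414). STEAP3, which reduces the iron that transferrin receptor brings into endosomes, was higher by 6.49 ± 1.22 (edgeR adjusted p = 0.00684). HMOX2, the constitutive haem oxygenase gene, had 214.8, 96.8 and 171.4 CPM in the erythroid gate, against 644.5, 573.9 and 399.5 CPM in the stem cell gate. It fell by 1.73 on the log2 scale (SE 0.36, edgeR adjusted p = 0.0107), the opposite direction to BLVRB.

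Of 14 other carbonic anhydrase genes listed, 4 had enough counts to be tested, and none passed in the erythroid against the stem cell gate in edgeR, where 1 had an unadjusted p under 0.05. Of all genes tested 9.59% passed there. CAR7 alone of the 4 rose against the megakaryocyte gate (5.71 ± 1.45, log2, SE; edgeR adjusted p = 0.0487) and against the neutrophil and monocyte gates (4.54 ± 1.06, edgeR adjusted p = 0.0189), and none passed against the basophil or mast cell gate. CAR7 had 20.2, 0.923 and 3.48 CPM in the erythroid gate, against 1.69, 0 and 0.291 CPM in the stem cell gate. CAR3 averaged 19.0 ± 12.0 CPM and 48.5 ± 23.7 CPM in those gates, a difference that did not pass (edgeR adjusted p = 0.256).

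Of the sphingosine 1-phosphate, aquaporin and claudin genes, 13 of 18 were tested, 0 were higher and 2 lower in the erythroid gate than in the stem cell gate, where 5.56% of all genes tested were lower, with a median of -0.36 (log2). Against the neutrophil and monocyte gates 3 were higher and 2 lower, where 3.54% of all genes tested were higher and 4.62% lower. Against the megakaryocyte gate 0 were higher and 1 lower, where 1.53% of all genes tested were higher and 2.43% lower. SPNS2, a sphingosine 1-phosphate transporter, had 14.1, 0.738 and 1.09 CPM in the erythroid gate, against 103.0, 76.6 and 103.7 CPM in the stem cell gate (edgeR adjusted p = 0.0317). S1PR2, a receptor for the lipid, was also lower (log2 -4.91 ± 1.39, edgeR adjusted p = 0.0436). MFSD2B, the exporter known from red cells and platelets, averaged 71.4 ± 14.8 CPM in the erythroid gate and had 29.8, 9.47 and 14.2 CPM in the stem cell gate (2.21 ± 0.68, edgeR adjusted p = 0.0618).

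Across the days both the number of erythroid-gated cells and the levels of the members over all cells varied, and no member passed the test of change with day. Erythroid-gated cells numbered 1 of 190 at day 3, 3 of 107 at day 10, and 19 of 288, 33 of 143 and 34 of 189 in m4528, m605 and m606 at day 17. Over all kept cells of a mouse, CAR1 had 202.3 CPM at day 3, 381.5 CPM at day 10, and 520.8, 1838 and 1603 CPM at day 17. In such sums, more erythroid cells and more RNA per cell cannot be told apart. At day 3, 2950 and 2647 of the 5852 CAR1 counts lay in a pair of wells. The well with 2950 was the erythroid-gated cell, and the well with 2647 was placed in the monocyte gate but held 8 erythroid and 8 monocyte markers and all 9 members. At day 10 the 3 erythroid-gated cells gave 10598 of 15275 counts.

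CAR2 over all kept cells had 4659 CPM at day 3, 3922 CPM at day 10, and 2623, 2999 and 3191 CPM at day 17. Stem-cell-gated cells made up 159 of 190 cells at day 3 and 64 of 107 at day 10, against 111 of 288, 19 of 143 and 42 of 189 at day 17. Within the stem cell gate CAR2 had 4884 CPM at day 3, 5243 CPM at day 10, and 4947, 3719 and 3913 CPM at day 17. BLVRB had 338.6 CPM at day 3, 250.4 at day 10, and 277.9, 1247 and 1121 at day 17, so that m4528, in the first table, lay with the earlier mice and the second-table mice stood apart.

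In that test in edgeR 0 members and 0% of 18438 genes passed. At an unadjusted p under 0.05, 1805 genes and 4 members passed, and DESeq2 called 496 genes and, of the members, CAR1 alone (adjusted p = 0.0305). Per 14 days, CAR1 changed by 1.49 ± 0.33 (log2, SE; edgeR adjusted p = 0.315), SPHK1 by 1.96 ± 0.81 (adjusted p = 0.545), TFRC by 1.45 ± 0.44 (adjusted p = 0.399), ERMAP by 1.16 ± 0.32 (adjusted p = 0.367) and CAR2 by -0.70 ± 0.23 (adjusted p = 0.444). All mice of the second table were taken at day 17, and with the table as a term the slope is therefore set by m4539, m4533 and m4528, and 2 residual degrees of freedom remain over 5 mice. Within the first table, CAR1, ERMAP, RHD, TFRC and SPHK1 were in the order of the days, with 20.4, 43.0 and 51.0 CPM of TFRC at days 3, 10 and 17.

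**Figure D5:**
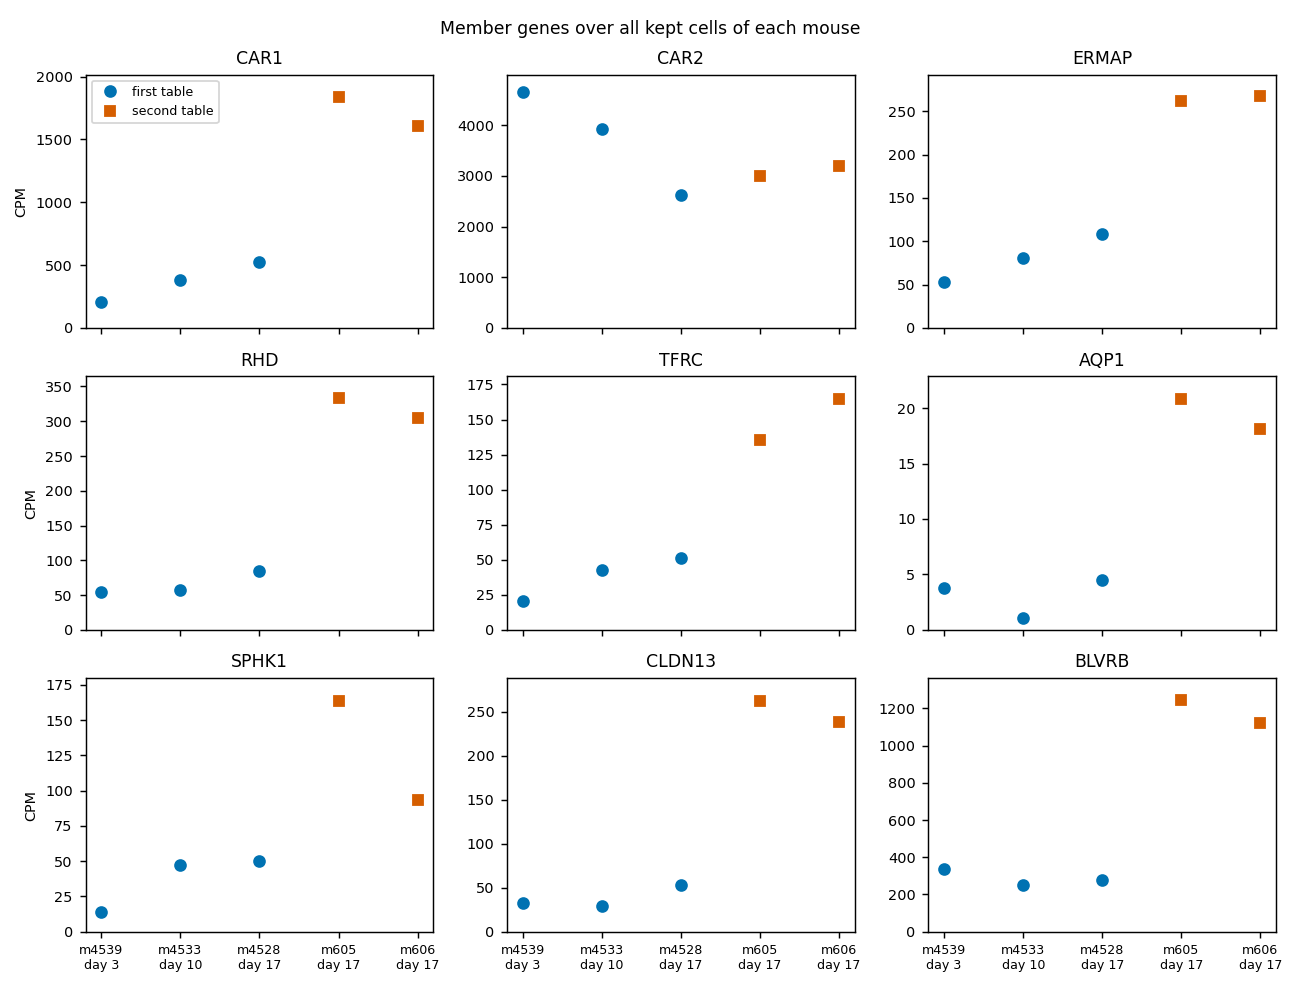
Levels of the 9 genes (CPM, linear axis from 0) over all kept cells of each mouse, day 3 to day 17 from left to right, circles for the first table and squares for the second. CAR1 stands at 202.3, 381.5, 520.8, 1838 and 1603 CPM, and the second-table mice lie above m4528 at day 17 for each of the 9 genes.

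The 4 erythroid-gated cells of days 3 and 10 had counts of most members. The day 3 cell, which held 7 erythroid markers, had 3204 CPM of CAR1, 4293 of CAR2, 939.3 of ERMAP, 723.2 of RHD, 285.6 of TFRC, 34.8 of AQP1, 251.9 of SPHK1, 344.2 of CLDN13 and 1306 of BLVRB, values inside the range of the day 17 erythroid cells. The day 10 cells differed among themselves. The cell with 5 markers had 4016 CPM of CAR1, 452.4 of ERMAP and 902.6 of SPHK1 with 1.496 of RHD, the cell with 7 markers had 1240 CPM of RHD and 714.5 of CLDN13 with 270.8 of CAR1, and the last had 4006 CPM of CAR1 and 515.5 of RHD with 2.46 of SPHK1. AQP1 had no count in any of the 3 day 10 cells.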

How the data were processed

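Single-cell counts per gene were deposited by the authors as 2 tables, whole numbers with no normalization. Per the submitters' processing notes, GRCm38 was the genome. No aligner, counter or molecular identifier is named in the labels, and counts are treated as reads. Per the labels' protocols, cells were sorted into 96-well plates. No column was left without a sample.

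CPM were computed over the 22842 shared genes. Gates required 3 held markers. The plan was to call a marker held at over 10 counts; the plate level was added for markers and members after seeing the data, and the planned gating is given as an alternative. A plate rich in a gene raises that threshold. Doublets were not called. The 9 genes, marker lists and other gene lists were chosen with earlier results of these data known.

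Counts were summed per mouse and gate (at least 5 cells) and tested with edgeR 4.0.16 (R 4.3.3, quasi-likelihood, TMM, filterByExpr) in 1 model over 17 sums of the day 17 mice. Mouse was a block, since all gates of a mouse come from the same animal. P-values were Benjamini-Hochberg adjusted over all genes tested, with a threshold of 0.05, and the tests were also run on simulated data. Day was fitted per 14 days over 5 mice with the table as a term. In the gate comparisons, p-values rest on the spread left between the 17 sums once gate and mouse are fitted, over all gates together. There were 3 mice per gate, except for 2 in the basophil or mast cell gate. DESeq2 1.42.0, other scaling, filters, gate thresholds, the mixed plate and each mouse left out were alternatives. Cells were thinned with a fixed seed. Genes other than the 9 were named by the highest correlation with the pattern of the 9 genes (5), CAR1 (3) or CAR2 (3), or as the 4 of each list with the lowest p in the erythroid against stem cell comparison. Some genes that this rule names are not reported here.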

Additional observations from a re-analysis of the deposited data

Results flagged for a closer look

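AQP1 stood apart on 1 plate of m4528. Plate 8 had 0.714 CPM of AQP1 over all kept cells, against 5.92, 5.23 and 5.18 CPM on plates 6, 7 and 9 of the same mouse, a gap that takes up most of the range of the 4 plates. Plate 8 also held 1 erythroid-gated cell of 51, against 6 of 85, 7 of 82 and 5 of 70, and had 70.6 CPM of CAR1, against 706.4, 591.1 and 595.2 CPM. The part of the number of erythroid cells in this was not tested. Other members were also low on plate 8, which had 0.0794 CPM of ERMAP and of RHD and none of SPHK1 or CLDN13, against 119.0 to 147.3, 39.7 to 137.9, 48.1 to 78.5 and 24.1 to 102.5 CPM of these genes on the other 3 plates. Of the 9 sets of plates, 1 per gene, AQP1 alone passed the criterion of gap over range, which chance alone passes in about 1 set of 20.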

How the results depend on the processing

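Of the 108 alternative values of the 9 members in the erythroid against stem cell comparison, 96 kept direction and call, 10 lost the call and 2 gained it. The numbers were 96, 9 and 3 of 108 against the megakaryocyte gate, 86, 18 and 4 of 108 against the basophil or mast cell gate, and 103, 5 and 0 of 108 against the neutrophil and monocyte gates, with no reversal in any of these. The count of all genes called moved more. In the order erythroid against stem cell, megakaryocyte, basophil or mast cell, and neutrophil and monocyte gates, DESeq2 called 2542, 1651, 2134 and 2089 genes and the added mixed plate gave 2505, 1279, 1253 and 1909. Without each mouse in turn these ranged over 1 to 445, 8 to 216, 24 to 556 and 242 to 586 genes, and over 0 to 6, 1 to 8, 0 to 7 and 8 to 8 members. For the basophil or mast cell gate, DESeq2 called 1842 genes and 2 members against the stem cell gate and 1426 genes and 4 members against the neutrophil and monocyte gates. The mixed plate gave 696 genes and 2 members, and 497 genes and 3 members, in those comparisons, markers at over 30 counts gave 227 genes, and 182 genes with 0 members, and sums of at least 10 cells, which leave that gate 1 sum (m4528), gave 3 members in the second. Gate markers at over 10 counts alone, the gating first planned, gave 148 genes and 2 members, and 117 genes and 2 members. Without each mouse they ranged over 8 to 233 and 5 to 241 genes, and 0 to 1 and 0 to 0 members. Between megakaryocyte and stem cell gates, DESeq2 called 674 genes, the mixed plate gave 308, and leaving out mice gave 0 to 4. With day, DESeq2 called 496 genes and 1 member, and 19 genes passed with no table term. The cause of these differences was not tested.

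Without the mouse as a replicate block, 656, 297, 473 and 198 genes were called in the erythroid against stem cell, megakaryocyte, and basophil or mast cell comparisons and the basophil or mast cell against stem cell comparison. It gave 3 genes between megakaryocyte and stem cell gates, and 2 members between basophil or mast cell and the neutrophil and monocyte gates.

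In these data all reversals were of values not called. CAR1 in the basophil or mast cell gate became -0.46 against the stem cell gate and -0.26 against the neutrophil and monocyte gates without m4528 (range without each mouse -0.46 to 3.20 and -0.26 to 2.59). BLVRB against the stem cell gate became 0.0190 with RLE scaling, 0.0192 with DESeq2, 0.32 with sums of at least 10 cells and 0.39 without m606 (range -0.49 to 0.39), and between megakaryocyte and stem cell gates -0.36 with markers at over 30 counts. With gate markers at over 10 counts alone, BLVRB became 0.14 and TFRC 0.89 in the basophil or mast cell against stem cell comparison, and BLVRB -0.0608 between megakaryocyte and stem cell gates. With day, AQP1 became -3.68 and CLDN13 -0.33 without m4528 (ranges -3.68 to 4.37 and -0.33 to 1.88), and BLVRB 1.77 with no table term and 0.47 without m4539 (range -0.90 to 0.47).

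Shares of cells depended on the threshold. CAR1 was in 23.3% of megakaryocyte-gated cells at over 10 counts, 97.3% at over 0 counts, and 0% both in thinned cells and with the plate level added. In the basophil or mast cell gate these were 28.6%, 95.2%, 5% and 4.76%. CAR2 in the megakaryocyte gate was at 98.6%, 100% and, with the plate level, 72.6%, and in the basophil or mast cell gate at 81.0%, 100%, 50% in thinned cells and 14.3% with the plate level. With 2 erythroid markers, CAR1 was at 40%, 100% and 91.7% in m4528, m605 and m606 alone, ERMAP at 10% and 66.7% in m4528 and m605, and RHD at 10% and 55.6% in those mice and at 51.6% over 0 counts.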
